A study of Mus musculus with 18 samples.

Results

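In mouse bone marrow macrophages exposed to TGF-β1 for 4 h, 7 genes are described: Gprc5c, Rnd3, Kbtbd11, Tox2, B3gnt5, Pcdh19 and Pcdhac2. In the fit, 3.24% to 16.8% of their untreated level remained, depending on gene and genotype label. They were chosen by name for a fall of about 10-fold or more, so the TGF-β1 values themselves selected them and are given as a description, with no test. All 7 names were found once each among the 54532 genes counted, and all 7 were among the 14684 genes that passed the filter on low counts. A 10-fold fall is not a uniform property of the set: in the fitted values Gprc5c and Rnd3 passed 10-fold in both genotype labels, and the other 5 genes passed it in 1 label each.

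Polyadenylated RNA was sequenced from 18 cultures of macrophages derived from the tibial marrow of mice 2 to 3 months old. All mice carried both Smad1 alleles flanked by loxP sites (Smad1 fl/fl). The knockout-labelled groups (MyS1KO) carried in addition Cre recombinase under the lysozyme M promoter, LyzMCre, which is active in myeloid cells, and the floxed-labelled groups carried no Cre. Within each label 3 libraries came from cells given 10 ng/ml TGF-β1 for 4 h, 3 from cells given 50 ng/ml BMP4 for 4 h and 3 from untreated cells, which makes 6 groups. Marrow cells spent 24 h in 15% serum with 12 ng/ml CSF-1 and medium conditioned by WEHI-3 cells, then 48 h in 120 ng/ml CSF-1, and were starved for about 16 h. The labels do not tell whether replicate libraries stem from different animals, so p-values measure the spread between these libraries, which may be partly technical.

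TGF-β1 binds a complex of type II and type I receptor kinases that phosphorylates Smad2 and Smad3. These join Smad4 in the nucleus and activate some genes and repress others. BMP4 acts through a related receptor pair and mainly through Smad1, Smad5 and Smad9, the branch in which the LyzMCre cross is meant to delete Smad1. In macrophages TGF-β1 is known for restraining inflammatory genes and for shaping tissue-resident identity.

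The genotype labels were not clearly borne out by the libraries. Lyz2, the gene that LyzMCre is built into, lay between 13400 and 17800 CPM (the count in proportion to the library's TMM-scaled total) in the 9 knockout-labelled libraries and between 8120 and 9870 CPM in the floxed-labelled libraries numbered 2 and 3. In the floxed-labelled libraries numbered 1 it was at 37.6 CPM with TGF-β1, 74.3 CPM with BMP4 and 62.1 CPM untreated. Cre built into this gene should lower its count, yet every floxed-labelled library lay below every knockout-labelled one. Lyz2 thus ran against the genotype labels throughout. The reason was not tested, and the direction of any difference between the labels is uncertain to that extent. Smad1 itself was lower by log2 0.2 to 0.23 under the knockout label, and this was not called in any treatment (edgeR adjusted p between 0.13 and 0.44). Which exons lie between the loxP sites is not given in the sources used here, so a count over the whole gene is a limited check of the deletion. The groups are therefore called by their labels, and results that rest on the floxed-labelled libraries numbered 1 are also given from a fit of the other 15 libraries. That fit keeps the floxed-labelled libraries numbered 2 and 3, so it does not remove the conflict between Lyz2 and the labels. Total counts ran from 15153296 to 24639163 per library. Macrophage markers summed to 12200 to 31300 CPM. This sum includes Lyz2, and its range largely follows the Lyz2 values above. Neutrophil markers reached 222 CPM, fibroblast and endothelial markers 21.3 CPM, dendritic cell markers 8.83 CPM, and lymphoid, mast and erythroid markers 4.23 CPM. With TGF-β1 a known target moved in both labels: Pmepa1, a feedback inhibitor of TGF-β signalling, averaged 194 CPM with TGF-β1 against 0.878 CPM untreated under the knockout label, and 203 CPM against 0.903 CPM under the floxed label. Id3, a classic BMP target, averaged 15.5 CPM with BMP4 against 1.22 CPM untreated under the knockout label (log2 3.66, SE 0.52, edgeR adjusted p = 0.00509). For the floxed label it averaged 7.19 CPM with BMP4 against 1.11 CPM untreated and was not called (log2 2.68, SE 0.54, edgeR adjusted p = 0.239). Its BMP4 libraries held 1.88 CPM in library 1 and 10.6 and 9.05 CPM in libraries 2 and 3, and in the fit of 15 libraries it was called (log2 2.94, SE 0.28, edgeR adjusted p = 0.000275). TGF-β1 raised Id3 more than BMP4 did, to 49.8 CPM under the knockout label (log2 5.33, edgeR adjusted p = 5.41e-08). Under the floxed label it averaged 19.8 CPM with TGF-β1 (log2 4.17, edgeR adjusted p = 1.45e-06). Id3 thus does not tell the ligands apart, and how TGF-β1 raised it was not tested.

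The genes lie on 6 chromosomes of the mm10 build (GRCm38.p6), and all are annotated as protein-coding. Rnd3 (ENSMUSG00000017144) spans chr2:51130438-51149111 on the minus strand and Tox2 (ENSMUSG00000074607) chr2:163203125-163324170 on the plus strand. Gprc5c (ENSMUSG00000051043) spans chr11:114851152-114872617, B3gnt5 (ENSMUSG00000022686) chr16:19760208-19772753 and Kbtbd11 (ENSMUSG00000055675) chr8:15011025-15033333, all on the plus strand. Pcdh19 (ENSMUSG00000051323) spans chrX:133582860-133688987 on the minus strand. Their spans run from 12.5 kb for B3gnt5 to 121 kb for Tox2, beside a median of 17.9 kb over all genes tested.

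RefSeq promoter sequence on GRCm38.p6 was searched for 4 of the 7 genes, in the 250 bases before the start site and on both strands. The search was for 4 letter strings linked to Smad binding or to repression by TGF-β. No entry was matched for Gprc5c and Kbtbd11, and Pcdhac2 was left out of the search. The promoters of Rnd3 (chr2:51149112-51149361, minus strand) and B3gnt5 (chr16:19759984-19760233, plus strand) are shown, 5′ to 3′, since each held 1 match, in capitals. In Rnd3 it is CGCCAA, starting 133 bases before the start site, the reverse complement of TTGGCG, the core of a repressive site bound by Smad and E2F factors. In B3gnt5 it is TGTCTG, 210 bases before the start site, the reverse complement of the Smad box CAGACA.
Rnd3: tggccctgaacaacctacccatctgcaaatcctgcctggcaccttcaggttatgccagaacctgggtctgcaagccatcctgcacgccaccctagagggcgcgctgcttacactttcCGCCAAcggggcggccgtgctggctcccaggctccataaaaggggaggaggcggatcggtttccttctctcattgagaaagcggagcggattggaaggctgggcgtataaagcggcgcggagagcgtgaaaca
B3gnt5: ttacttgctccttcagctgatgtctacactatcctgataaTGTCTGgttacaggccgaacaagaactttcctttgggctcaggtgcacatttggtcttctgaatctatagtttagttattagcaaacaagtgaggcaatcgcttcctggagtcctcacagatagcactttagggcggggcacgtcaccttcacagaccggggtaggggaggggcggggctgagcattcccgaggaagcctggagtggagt
TTGGCG was found in 5.87% and CAGACA in 17.1% of 32851 RefSeq mouse promoters searched over the same length, so either match is a description of these letters and not a binding site. The promoters of Tox2 and Pcdh19 held neither. The Smad palindrome GTCTAGAC (0.167% of all promoters) and the GC-rich Smad site GGCGCC (9.59%) were found in none of the 4 windows. The windows held 51.2% G and C bases in B3gnt5, 60% in Rnd3, 69.2% in Pcdh19 and 75.2% in Tox2, beside a median of 52.4% over all promoters.

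Rnd3 and Gprc5c were the only members of more than low abundance before treatment. Per transcript length, Rnd3 averaged 10.9 FPKM in untreated knockout-labelled cells and 11.3 FPKM in untreated floxed-labelled cells, a level above 71.8% and 72.3% of the genes tested. Gprc5c averaged 6.88 and 5.68 FPKM in the same groups, above 61.3% and 56.8% of the genes tested. The other 5 members averaged between 0.12 FPKM for Pcdh19 and 0.512 FPKM for B3gnt5 untreated, above 3.32% to 17.5% of the genes tested. With TGF-β1, Rnd3 averaged 0.785 and 0.861 FPKM and Gprc5c 0.332 and 0.285 FPKM under the knockout and floxed labels, and the other members between 0.00469 and 0.0523 FPKM.

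Gprc5c encodes an orphan receptor of the retinoic acid-inducible GPRC5 family. In knockout-labelled cells treated with TGF-β1 it was at 1.74, 2.23 and 1.28 CPM, against 30.9, 46.8 and 31.4 CPM in untreated cells. Floxed-labelled cells had 1.45, 1.58 and 1.51 CPM with the ligand, against 25.8, 33.8 and 30.3 CPM in untreated cells. The TGF-β1 libraries lay more than 10-fold below every untreated library of the same label. The fitted log2 change was -4.37 (SE 0.24) under the knockout label and -4.3 (SE 0.24) under the floxed label, which leaves 4.82% and 5.09% of the untreated level. With BMP4, Gprc5c was at 33.2, 40.5 and 24 CPM under the knockout label and at 26.6, 27.5 and 33 CPM under the floxed label, within the range of the untreated libraries or close to it.

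Rnd3 encodes an atypical small GTPase, held in its GTP-bound form, that loosens actin stress fibres. TGF-β1-treated cells of the knockout label had 4.41, 2.5 and 3.57 CPM, against 50.3, 43.9 and 51.3 CPM untreated. Those of the floxed label had 4.18, 3.74 and 3.64 CPM, against 51.7, 48.9 and 50.9 CPM untreated. The untreated libraries of both labels lay within a narrow band. The TGF-β1 libraries lay far below it, between 2.5 and 4.41 CPM. The fitted log2 changes of -3.81 (SE 0.13) under the knockout label and -3.72 (SE 0.12) under the floxed label leave 7.13% and 7.6%. BMP4 libraries were at 51.9, 43.4 and 54.7 CPM under the knockout label and at 50, 52.6 and 53.6 CPM under the floxed label.

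B3gnt5 encodes the N-acetylglucosaminyltransferase that starts the lacto- and neolacto-series glycosphingolipids. Its reads were few: 1, 3 and 5 counts with TGF-β1 under the knockout label, against 32, 36 and 39 counts untreated. Floxed-labelled libraries held 2, 7 and 9 counts with TGF-β1, against 79, 42 and 50 counts untreated. In both labels the largest TGF-β1 count lay far below the smallest untreated count. In CPM this is 0.166 ± 0.0999 against 2.19 ± 0.258 under the knockout label (SD, n = 3 libraries each), a log2 change of -3.62 (SE 0.41). Under the floxed label the log2 change was -3.28 (SE 0.34), just short of 10-fold at 9.7-fold, and -2.77 (SE 0.38) without the libraries numbered 1.

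Kbtbd11 encodes a protein of the BTB-kelch type, a class that includes substrate adaptors of cullin 3 ubiquitin ligases. It was at 0.535, 0.163 and 0.426 CPM in TGF-β1-treated knockout-labelled cells, against 2.48, 2.01 and 2.14 CPM untreated. In TGF-β1-treated floxed-labelled cells it was at 0.278, 0.0831 and 0.209 CPM, against 2.44, 3.44 and 1.7 CPM untreated. The groups did not overlap in either label, but the fall was smaller under the knockout label. There the log2 change was -2.57 (SE 0.41), which is 5.94-fold, and it was -3.75 (SE 0.43), or 13.4-fold, under the floxed label. The test of that difference is given further on. Some of these reads could belong to predicted genes on the other strand within its span, since the sources used here do not state whether counting used strand. The counts assigned to those genes came to 4 in all 18 libraries, which does not settle this, as reads on overlapping exons may have been left unassigned.

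Tox2 encodes an HMG-box DNA-binding protein of the TOX family, known from lymphocyte development and exhaustion. It had 2, 4 and 1 counts with TGF-β1 under the knockout label, against 12, 30 and 15 counts untreated. The floxed-labelled libraries had 4, 2 and 1 counts with TGF-β1, against 33, 34 and 15 counts untreated. The log2 changes were -3.06 (SE 0.64) and -3.5 (SE 0.61) for the knockout and floxed labels, and -4.15 (SE 0.82) for the floxed label without the libraries numbered 1. Taken as summed counts, 11.5% of Tox2 remained under the knockout label (95% exact interval 4.43% to 25.3%) and 8.2% under the floxed label (3.2% to 17.7%). These intervals cover counting error only.

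Pcdh19 encodes an X-linked, non-clustered δ-protocadherin, a calcium-dependent adhesion molecule best known from neurons. Under the knockout label TGF-β1 libraries held 0, 0 and 3 counts, against 19, 25 and 18 counts untreated. Floxed-labelled ones held 4, 4 and 5 counts, against 30, 36 and 24 counts untreated. Relative to untreated cells 4.54% remained under the knockout label (95% exact interval 0.911% to 13.9%) and 13.9% under the floxed label (7.12% to 25%), so the intervals overlap. Pcdhac2 (ENSMUSG00000102697, chr18:37143503-37187657, plus strand) encodes a C-type member of the clustered α-protocadherins. It had 2, 3 and 1 counts with TGF-β1 under the knockout label, against 17, 14 and 20 counts untreated. Under the floxed label it had 0, 0 and 2 counts with TGF-β1, against 18, 37 and 16 counts untreated, and 2.71% remained (95% exact interval 0.322% to 10.1%). The order of these genes is reversed between the labels at these counts: Pcdh19 was the more reduced under the knockout label and Pcdhac2 under the floxed label. A floor of 3 counts corresponds to 0.122 to 0.198 CPM per library, and the TGF-β1 libraries of both genes were at or under it, apart from those of Pcdh19 under the floxed label. Pcdhac2 shares exons with the rest of the α-protocadherin cluster and its reads are uncertain for that reason. No other α-protocadherin had more than 2 counts over all 18 libraries. Reads on shared exons may have been left unassigned, so these low counts do not settle where such reads belong.

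**Figure D1:**
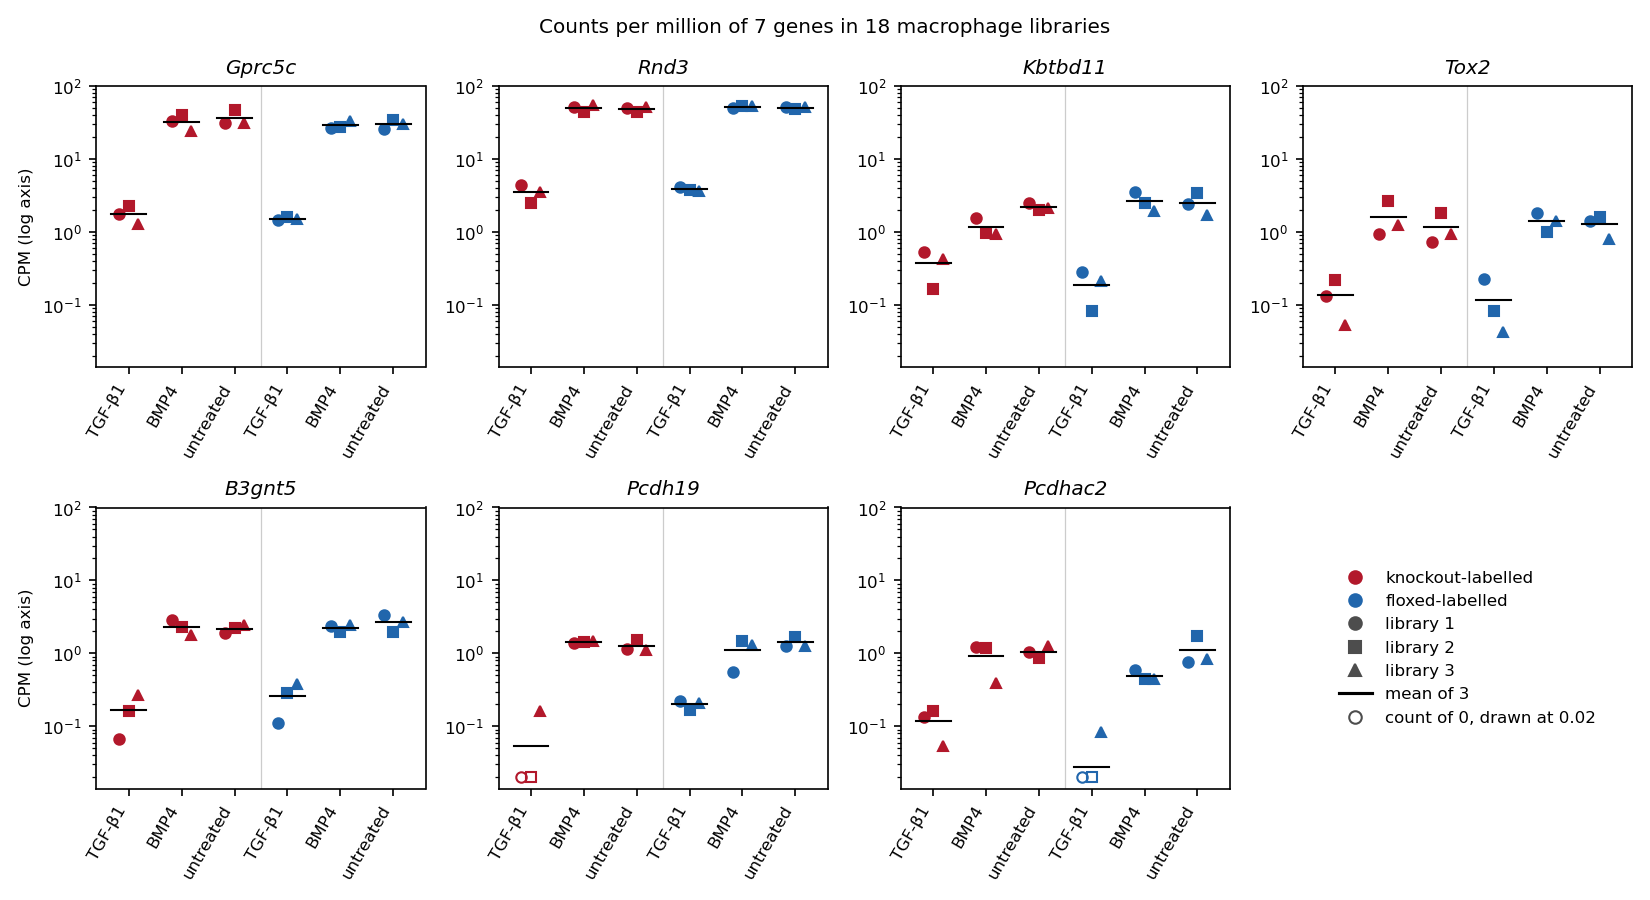
CPM (log axis) of each gene in all 18 libraries, by ligand, with the knockout-labelled groups left of the floxed-labelled groups. Symbols stand for the library numbers and bars for the mean of 3. For each gene the TGF-β1 libraries lie below all BMP4 and untreated libraries of their label, and open symbols at the foot mark libraries with no count.

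Taken over the 7 genes, 4 fell past 10-fold in the fit under the knockout label (Gprc5c, Rnd3, B3gnt5 and Pcdh19) and 5 under the floxed label (Gprc5c, Rnd3, Kbtbd11, Tox2 and Pcdhac2). Over all 14684 genes tested, 21 (0.143%) passed that fold under the knockout label and 20 (0.136%) under the floxed label. The median log2 change of the members was -3.62 under the knockout label and -3.72 under the floxed label, beside 0 over all genes. The TGF-β1 and untreated libraries did not overlap for any member in either label, which was also so for 44.9% of all genes under the knockout label and 43.9% under the floxed label. As the fall chose the genes, nothing is read from these shares. In bulk RNA, a fall of this kind in fewer cells and less RNA in each cell cannot be told apart.

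The choice of members is not the full list of such genes. Among 11013 protein-coding genes with at least 1 CPM untreated, 4 fell past 10-fold in both labels: Gprc5c, Rnd3, Slc40a1 (the iron exporter ferroportin) and Ahr (the aryl hydrocarbon receptor). Nearest inside the threshold were Ahr, with a smaller fall of 10.2-fold, and Slc40a1, with 12.4-fold. Nearest outside it were Ednrb, an endothelin receptor, at 9.95-fold, the ligand Bmp2 at 9.84-fold and Cd163, the haemoglobin scavenger receptor, at 9.21-fold. By the same measure, the smaller of the falls in the 2 labels, B3gnt5 stood at 9.7-fold, Pcdhac2 at 8.64-fold, Tox2 at 8.33-fold, Pcdh19 at 6.99-fold and Kbtbd11 at 5.94-fold.

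**Figure D2:**
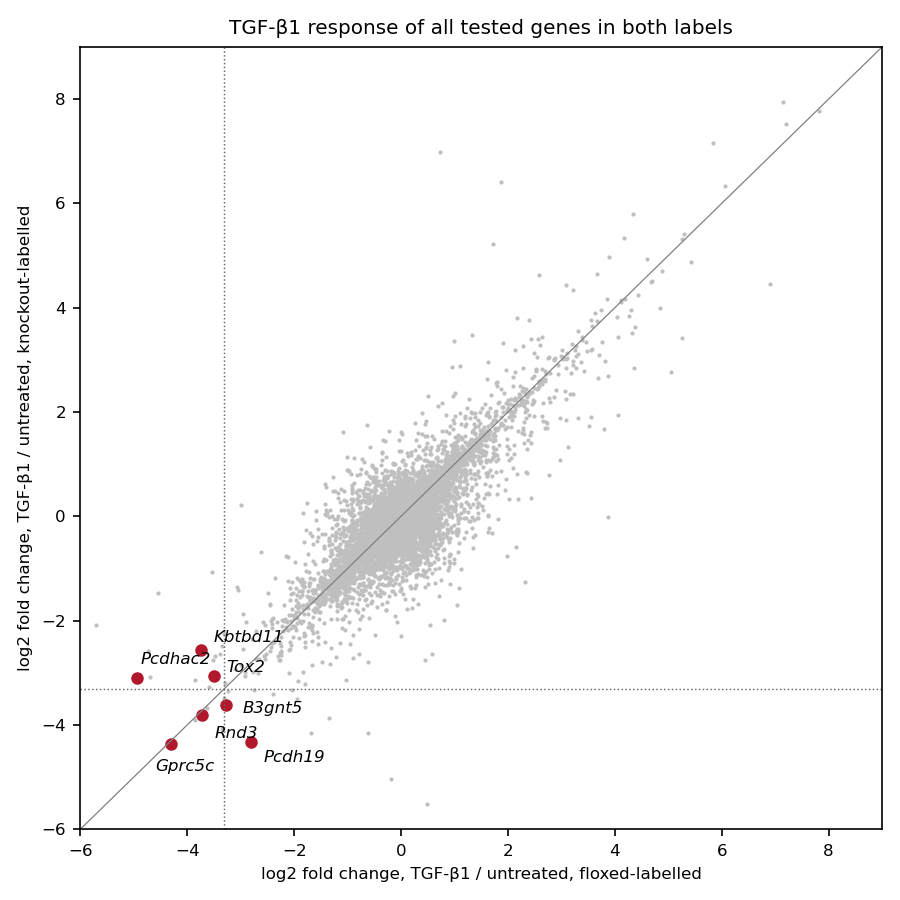
Fitted log2 fold change with TGF-β1 against untreated for the 14684 tested genes, floxed label on the horizontal axis and knockout label on the vertical axis. Dotted lines mark a 10-fold fall and the solid line equal changes. Red points are the 7 genes: Gprc5c and Rnd3 lie beyond both dotted lines, and the other 5 lie beyond one of them.

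BMP4 did not bring any of the 7 genes past the test in either label. Under the knockout label 0 of 7 were called by edgeR's quasi-likelihood test, where 84 of all genes tested were called (0.572%). Under the floxed label 0 of 7 were called, where 0% of all genes were. There 1103 genes of all those tested had an unadjusted p under 0.05 by edgeR, 1 member among them, and DESeq2 called 14 genes and no member. The member medians were log2 0.04 under the knockout label and -0.04 under the floxed label, beside 0 over all genes. The BMP4 and TGF-β1 comparisons share their untreated libraries.

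For the abundant members the absence of a call came with narrow limits. The 95% interval of the BMP4 change of Rnd3 was log2 -0.16 to 0.24 under the knockout label and -0.15 to 0.24 under the floxed label. For Gprc5c it was log2 -0.52 to 0.2 and -0.4 to 0.32. Over both genes and both labels these limits span 0.697-fold to 1.25-fold, far from the TGF-β1 change. For the scarce members the intervals were wider, and a change of around 2-fold could not be detected for most: Tox2, for example, had an interval of log2 -0.46 to 1.35 under the knockout label. B3gnt5 was at 2.84, 2.27 and 1.77 CPM with BMP4 under the knockout label and at 2.39, 1.94 and 2.45 CPM under the floxed label, within or next to its untreated range.

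With BMP4, 2 members lay apart from their untreated libraries without passing the adjusted test. Kbtbd11 was at 1.56, 0.979 and 0.935 CPM with BMP4 under the knockout label, below all 3 untreated libraries (log2 -0.92, SE 0.34, edgeR adjusted p = 0.26, lower in 3 of 3 libraries). Pcdhac2 was at 0.597, 0.444 and 0.446 CPM with BMP4 under the floxed label, again below all 3 untreated libraries (log2 -1.16, SE 0.46, edgeR adjusted p = 0.591). Groups that do not overlap were found for 15.7% of all genes in the first of these comparisons and for 13.2% in the second. With the library number as a block within each label, the gene-wide count of BMP4 calls was 472 under the knockout label and 53 under the floxed label, and no member was called. The adjusted p of Kbtbd11 under the knockout label was then 0.0858 and that of Pcdhac2 under the floxed label 0.323. In the other label Kbtbd11 gave log2 0.07 (SE 0.3) and Pcdhac2 log2 -0.16 (SE 0.44).

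**Figure D3:**
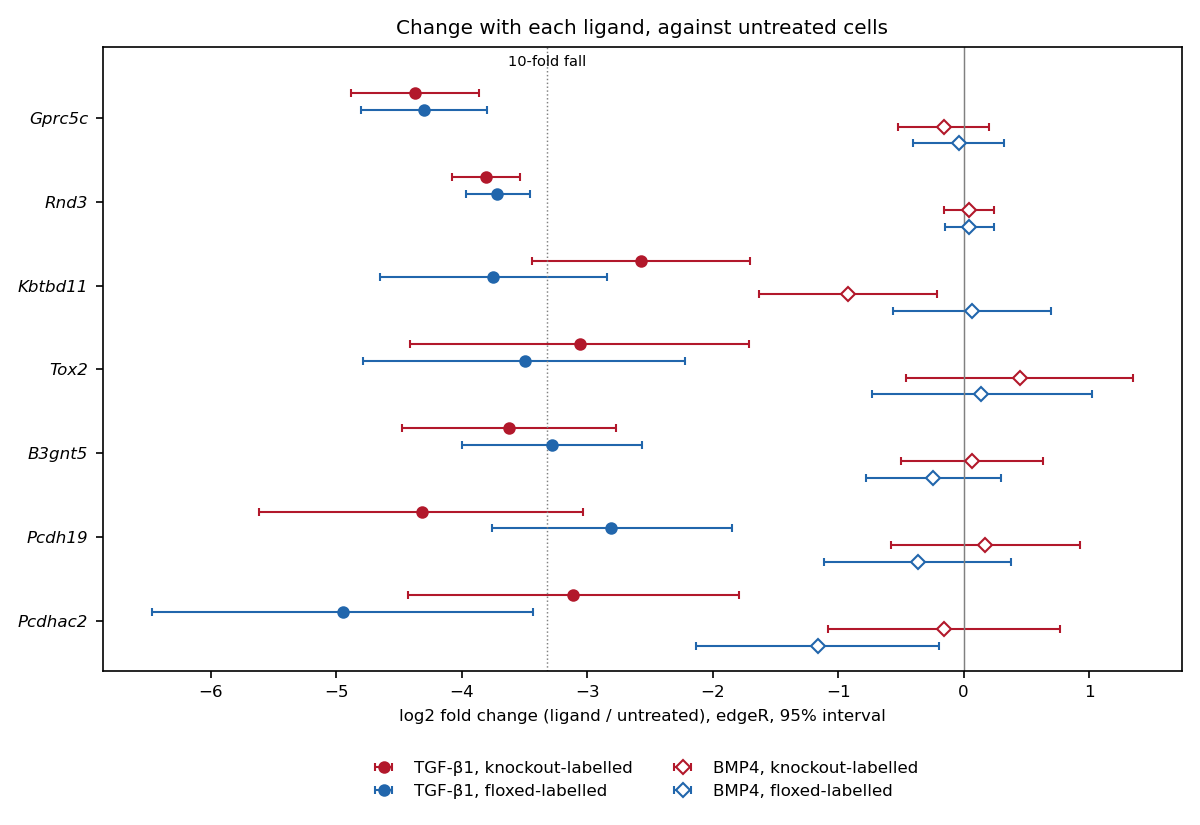
Fitted log2 fold change of each gene against untreated cells, with 95% intervals, for TGF-β1 (filled circles) and BMP4 (open diamonds) in the knockout-labelled (red) and floxed-labelled (blue) groups. The dotted line marks a 10-fold fall. The TGF-β1 values run from -4.95 to -2.57 and the BMP4 values from -1.16 to 0.45.

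Set directly against BMP4-treated cells, TGF-β1-treated cells were lower in all 7 genes of both labels by description. Gprc5c differed by log2 -4.21 (SE 0.24) and -4.25 (SE 0.24) under the knockout and floxed labels, and Rnd3 by -3.85 (SE 0.13) and -3.76 (SE 0.12). Kbtbd11 showed the smallest such difference, -1.65 (SE 0.44), under the knockout label, where its BMP4 level was low, and -3.82 (SE 0.43) under the floxed label.

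The genotype label made no called difference to any member in any treatment. With TGF-β1, 0 of 7 were called between the labels, where 0.388% of all genes were. With BMP4, 0 of 7 were called, where 0.0272% were. In untreated cells 0 of 7 were called, where 2.39% were. Rnd3 was the most tightly bounded: the knockout label differed from the floxed label by log2 -0.15 (95% interval -0.5 to 0.19) with TGF-β1, -0.06 (-0.26 to 0.14) with BMP4 and -0.06 (-0.26 to 0.14) untreated. Gprc5c was higher under the knockout label by log2 0.2 (-0.53 to 0.94), 0.16 (-0.19 to 0.52) and 0.28 (-0.08 to 0.64) in the same order, none of them called.

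The largest label difference by unadjusted p was that of Kbtbd11 with BMP4. Its knockout-labelled libraries were at 1.56, 0.979 and 0.935 CPM and its floxed-labelled libraries at 3.53, 2.5 and 1.96 CPM, with no overlap (log2 -1.19, SE 0.33, edgeR adjusted p = 0.331). Of all genes, 13.2% did not overlap in that comparison. Without the floxed-labelled libraries numbered 1 it was log2 -0.93 (SE 0.36, edgeR adjusted p = 0.656), and with no filter on low counts it was called (log2 -1.19, edgeR adjusted p = 0.00962), so the call depends on the filter. DESeq2 gave an adjusted p of 0.134. With TGF-β1 the same gene leaned the other way, log2 0.98 (95% interval -0.26 to 2.21). Pcdh19 with TGF-β1 gave 0, 0 and 0.16 CPM for the knockout label, set against 0.223, 0.166 and 0.209 CPM for the floxed label (log2 -1.68, SE 0.82, edgeR adjusted p = 0.415). These did not overlap, as for 19.2% of all genes, but the knockout-labelled library nearest to the others held 3 counts and the floxed-labelled ones 4, 4 and 5. With 1 library left out this difference ran from log2 -5, without that library, to -1.11 (edgeR adjusted p 0.153 to 0.69).

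**Figure D4:**
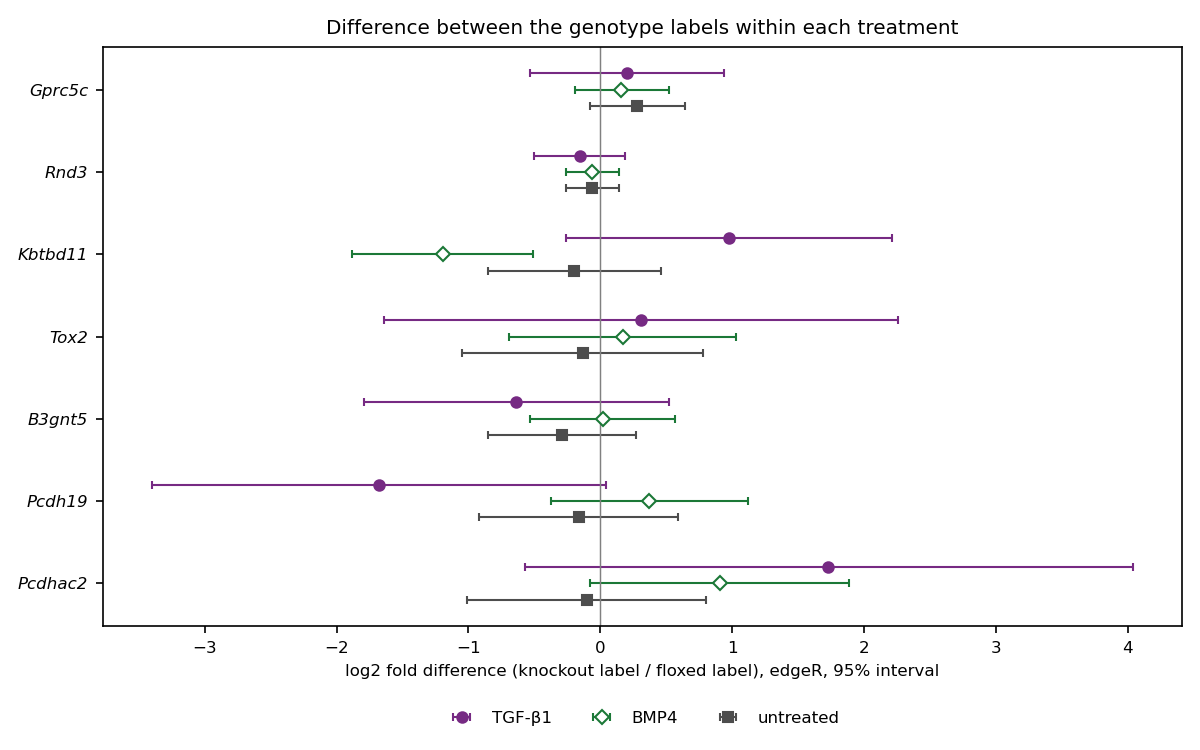
Fitted log2 difference between the labels (knockout over floxed) for each gene with TGF-β1, with BMP4 and untreated, with 95% intervals. Of the 21 intervals, that of Kbtbd11 with BMP4 (-1.88 to -0.51) leaves out 0, and the widest belong to Pcdhac2, Tox2 and Pcdh19 with TGF-β1.

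The difference of the TGF-β1 responses between the labels was also tested directly, and 0 of 7 members were called, where 0.00681% of all genes were. The response of Rnd3 differed by log2 -0.09 (95% interval -0.49 to 0.31) and that of Gprc5c by -0.08 (-0.9 to 0.75). The uneven falls described above for the scarce genes stayed within their error: Kbtbd11 differed by log2 1.18 (-0.22 to 2.57), Pcdh19 by -1.52 (-3.39 to 0.36) and Pcdhac2 by 1.84 (-0.63 to 4.3), each with an edgeR adjusted p of 1. With 1 library left out the Pcdh19 value ran from -4.84 to -0.95 and the Pcdhac2 value from 1.28 to 4.35. The extremes farthest from 0 came without TGF-β1 library 3 of the knockout label for Pcdh19 and of the floxed label for Pcdhac2, the only library of its group with counts, so these fitted values are no bound. For BMP4, 0 of 7 were called, where 0% of all genes were, 839 genes had an unadjusted p under 0.05, and DESeq2 called 15 genes and no member. Kbtbd11 had the lowest p, with a difference of log2 -0.99 (SE 0.45, edgeR adjusted p = 0.855). Of 49 member values tested in all comparisons, 0 were called and 4 had an unadjusted p under 0.05.

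Some members were highest in the same numbered library throughout. Library 2 of the knockout label was the highest for Gprc5c with TGF-β1 (2.23 CPM), with BMP4 (40.5 CPM) and untreated (46.8 CPM). It was also the highest for Tox2 in all 3 treatments, at 0.218, 2.63 and 1.83 CPM. For Kbtbd11, library 1 of that label was the highest in all 3 treatments. In all, the same numbered library led in each treatment for 3 of 7 members under the knockout label and for 0 of 7 under the floxed label, where this was so for 22.1% and 20.6% of all genes tested. Libraries with the same number and label deviated together over all genes in both labels.

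The nearest tested gene on either side of each member, 14 genes in all, was examined with TGF-β1 against untreated cells. Their distances ran from 9.94 kb for Arhgef10 to 3560 kb for Mcph1, both from Kbtbd11, so many are not close. Under the knockout label 3 were called lower, 1 higher and 10 not, and under the floxed label 4 lower, 1 higher and 9 not, beside 17.1% lower and 17.6% higher among all genes under the knockout label and 16% and 17% under the floxed label. The median log2 change of the neighbours was -0.12 and -0.1 in the 2 labels. None of the neighbours of Rnd3, Tox2 and Pcdhac2 was called.

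One neighbour moved as far as a member. A930003A15Rik, a long non-coding RNA gene 104 kb to the right of B3gnt5 and on the other strand, had 0, 1 and 2 counts with TGF-β1 under the knockout label, against 10, 7 and 10 counts untreated. In floxed-labelled cells it had 1, 0 and 4 counts, against 25, 33 and 17 counts. Its log2 change was -3.13 (SE 0.75, edgeR adjusted p = 0.00277) and -3.85 (SE 0.59, edgeR adjusted p = 3.42e-05). On the far side of B3gnt5, 790 kb away, the histone chaperone gene Hira gave log2 -0.09 and 0.12 and was not called.

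Gprc5c had a called neighbour on each side. Cd300a, an inhibitory receptor of myeloid cells 17.4 kb away, averaged 117 ± 1.3 CPM with TGF-β1 under the knockout label, against 272 CPM untreated, and 109 against 267 CPM under the floxed label (log2 -1.22 and -1.29, SE 0.05 each, edgeR adjusted p = 2.27e-13 and 9.23e-14). Kif19a, a kinesin gene on the other side, fell by log2 0.68 and 0.94 (edgeR adjusted p = 0.0452 and 0.00632). The first of these calls was lost without the floxed-labelled libraries numbered 1 (edgeR adjusted p = 0.0561), and also without knockout-labelled TGF-β1 library 1 or 2 or untreated library 2 or 3 (edgeR adjusted p over all 6 such refits 0.00594 to 0.245). Arhgef10, a guanine nucleotide exchange factor gene 9.94 kb to the left of Kbtbd11, had 1.67, 0.926 and 0.693 CPM with TGF-β1 under the knockout label, set against 1.51, 1.77 and 1.38 CPM untreated, and was not called there (log2 -0.53, SE 0.33, edgeR adjusted p = 0.231), though it was without TGF-β1 library 1 (log2 -0.94, edgeR adjusted p = 0.0442, range over the 6 refits 0.0442 to 0.595). In floxed-labelled cells it had 0.613, 0.581 and 0.921 CPM with TGF-β1, set against 2.23, 2.83 and 1.65 CPM, and fell by log2 1.65 (SE 0.31, edgeR adjusted p = 0.00034). The difference of its responses was log2 1.12 (SE 0.46, edgeR adjusted p = 1). Diaph2, a formin gene 3120 kb from Pcdh19, rose by log2 0.41 and 0.42. With the library number as a block within each label, the neighbours called under the knockout label were 5 lower and 2 higher. Added were Mmadhc, 834 kb from Rnd3 (log2 -0.19, edgeR adjusted p = 0.0474), and Cstf2, 370 kb from Pcdh19 (-0.26, edgeR adjusted p = 0.0156). Mybl2, 118 kb from Tox2 (0.42, edgeR adjusted p = 0.0406), was added as well. Under the floxed label Mmadhc was added (-0.18, adjusted p = 0.0407).

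**Figure D5:**
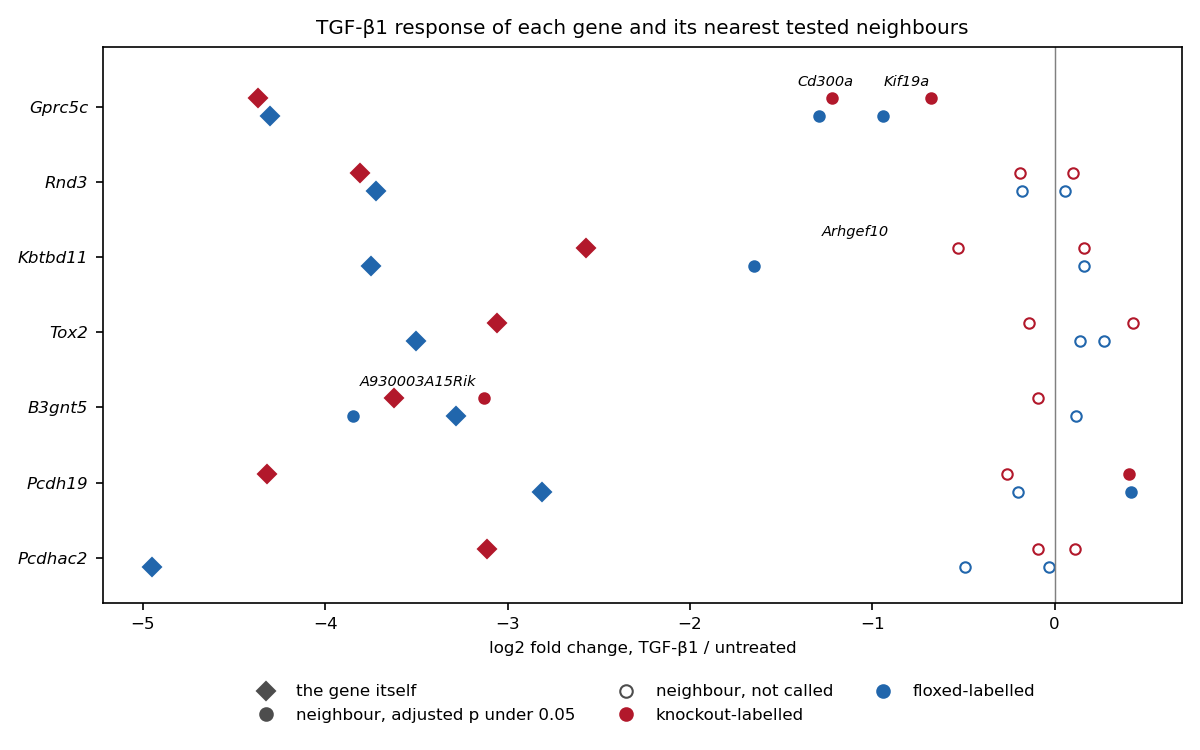
Fitted log2 fold change with TGF-β1 against untreated for each of the 7 genes (diamonds) and for the nearest tested gene on each side (circles, filled where the edgeR adjusted p is under 0.05), knockout label in red above floxed label in blue. A930003A15Rik beside B3gnt5 is the only neighbour beyond log2 -2, and most others lie near 0.

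The lists built around the families and pathways of these genes held both called rises and called falls with TGF-β1, the clustered protocadherins excepted. Over all genes tested, 17.1% were called lower and 17.6% higher under the knockout label, and 16% and 17% under the floxed label. Calls in both directions are thus not particular to these lists. In what follows, members are left out of the lists and the calls are edgeR's over all genes. Of 30 BTB-kelch and cullin 3 genes, 9 rose and 7 fell under the knockout label and 10 rose and 5 fell under the floxed label. Enc1 rose by log2 2.56 and 2.59 and Ivns1abp by 1.32 and 1.44, and Klhl5 fell by 0.39 and 0.33 and Klhl18 by 0.29 and 0.43.

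Glycosphingolipid synthesis genes, the pathway of B3gnt5, were also called in both directions. Of 25 tested, 5 rose in each label, and 9 fell under the knockout label and 7 under the floxed label, with medians of log2 -0.02 and -0.09. B4galt6, a lactosylceramide synthase acting just before B3gnt5, averaged 195 ± 7.15 CPM with TGF-β1 against 443 ± 22.2 CPM untreated under the knockout label and 199 ± 9.99 against 410 ± 10.4 CPM under the floxed label (SD, n = 3 libraries each), falls of log2 1.19 and 1.04. The sialyltransferase gene St3gal1 fell by log2 1.32 and 1.08. B4galt1 rose by log2 1.3 and 1.28, and Gcnt2, which branches poly-N-acetyllactosamine chains, by 2.9 and 2.93. Of 12 TOX and HMG-box genes, 5 rose and 1 fell in each label, Hmgb2 (log2 0.46 and 0.5) and Hbp1 (0.28 and 0.34) among the risers and Bbx (-0.27 and -0.28) alone among the fallers. With 1 library left out the falls numbered 0 to 1 under the knockout label and 1 to 2 under the floxed label. Tox4, the only TOX family gene tested in that list, was not called (log2 -0.01 and 0.04).

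No other clustered protocadherin was called with TGF-β1 in the fit of all libraries. Of 10 tested clustered protocadherins other than Pcdhac2, out of 56 in the table, 0 were called in either direction in either label. Their medians were log2 -0.18 and -0.14 (1 was called lower under the floxed label without the libraries numbered 1). These genes were scarce, with untreated means of 0.383 to 5.11 CPM. The SE of their log2 changes ran from 0.2 to 0.52, so a moderate change could go uncalled. Of 11 tested genes for non-clustered protocadherins, cadherins and catenins, 4 rose and 3 fell under the knockout label. Those called under the floxed label were 4 that rose and 2 that fell. The falls numbered 1 without knockout-labelled TGF-β1 library 3 or untreated library 1, and 1 without floxed-labelled TGF-β1 library 2 or 3 or untreated library 1 or 2. Pcdh7, another δ-protocadherin, averaged 86.3 ± 1.95 CPM with TGF-β1 against 40.5 ± 3.25 CPM untreated under the knockout label, and 71.2 ± 6.54 against 35.3 ± 5.03 CPM under the floxed label, a rise of log2 1.09 and 1.02. Ctnnb1, which links cadherins to actin as β-catenin, rose by 0.87 and 0.85, and Ctnnd1 fell by 0.37 and 0.48. Of 6 tested GPRC5 and retinoid pathway genes, Rxra rose by log2 0.49 and 0.48 and Rarg fell by 0.86 and 0.68. Gprc5b, the only GPRC5 gene among them, was not called (log2 -0.62 and -0.7). With BMP4, 0 genes of these lists were called in either label.

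Over all 18 libraries, the gene whose centred log2 CPM profile lay nearest to that of a member was usually one that fell with TGF-β1, since that fall makes up most of each profile. For Rnd3 it was Ahr, with a root mean square distance of 0.28, then Ednrb at 0.34. For Gprc5c it was Slc40a1 at 0.34, then Rnd3 at 0.44. For B3gnt5 it was Ednrb at 0.32 and Relt, a receptor of the TNF receptor family, at 0.41. Tox2 lay nearest to the ephrin receptor gene Epha4 at 0.41 and to Cd28 at 0.44, and Kbtbd11 to Asb2 at 0.48 and Gas7 at 0.49. The distances were larger for the protocadherins, 0.51 from Pcdh19 to Rhobtb1 and to Ednrb, and 0.54 and 0.55 from Pcdhac2 to Itsn1 and Cdc42ep2. These distances share libraries and depth, and counting noise adds to those of the scarce genes.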

How the data were processed

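RNA sequencing of macrophage cultures gave 18 libraries in 6 groups of 3, grouped by the labels. Per the submitters' processing notes, 150 bp paired reads were processed with TopHat2 2.0.9, HTSeq 0.6.1 and Cufflinks 2.1.1 on mm10 (GRCm38.p6). The deposited values are read counts per gene and FPKM, per the file headers, and 78 further per-sample columns were not used. FPKM served only to compare levels between genes.

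The counts were fitted with edgeR 4.0.16 under R 4.3.3 (TMM, filterByExpr, quasi-likelihood F test, two-sided, 1 mean per group over all libraries, Benjamini-Hochberg adjustment over 14684 genes). Called means an adjusted p under 0.05. Total counts ran from 15153296 to 24639163. No pair of libraries within a group agreed within sampling noise (chi-square divided by its degrees of freedom, 3.56 to 27.4). The test was checked on simulated counts of independent libraries with the same spread for every gene. That check does not cover libraries that deviate together or genes with a larger spread.

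Libraries with the same number and label deviated together from their group means (correlation 0.334 to 0.731 in 18 pairs over 8601 genes), and libraries with the same number across labels did not (-0.337 to 0.234), so the number pairs libraries within a label. Members, lists and tests were chosen with earlier results of these data known. Named genes are the members, their nearest tested neighbours, the 2 nearest profiles, the genes next to the 10-fold threshold, and up to 2 called genes per list and direction by lowest adjusted p. One gene list is not reported here. Alternatives were other scalings, filters, DESeq2 1.42.0, replicate blocks, smaller fits and each library left out in turn.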

Additional observations from a re-analysis of the deposited data

How the results depend on the processing

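No member was called under any alternative except Kbtbd11 between the labels with BMP4, called with no low-count filter. Of 1185 member values under the alternatives, 1126 stayed the same, 40 uncalled values changed sign, 18 moved and 1 became called. For tested values, the same means that direction and call were kept. For the untested TGF-β1 values it means a shift smaller than the SD of log2 CPM between replicate libraries, and moved means a larger shift. Such a value can cross 10-fold and still count as the same. The cause of these changes was not tested. With a mean of at least 1 CPM as filter, 3 members passed a 10-fold fall under the floxed label, as fewer members are tested. With no low-count filter 1 member was called between the labels with BMP4. Under the replicate block within genotype label 5 neighbours were lower and 2 higher with TGF-β1 under the knockout label, and it changed no call of a member; as the block is nested in the label, it gives no comparison between labels. Without the floxed-labelled libraries numbered 1, Kbtbd11 changed by log2 -0.22 with BMP4 under the floxed label, against 0.07 in the fit of all libraries.

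Counts of called genes over all genes moved by more than 1.5 times in the following cases. BMP4 under the knockout label (84) gave 240 with no filter, 472 with the block within label, 45 in the 15 libraries, 2 in the groups compared alone and 181 by DESeq2. BMP4 under the floxed label (0) gave 69, 53, 1 and 14 with no filter, the block within label, 15 libraries and DESeq2. Between the labels untreated (351), it gave 817 with no filter, 39 in 15 libraries, 29 in the groups alone and 539 by DESeq2. Between the labels with TGF-β1 (57), it gave 30 with RLE, 394 with no filter, 97 with the block over all groups, 2 in 15 libraries, 18 in the groups alone and 189 by DESeq2. Between the labels with BMP4 (4), it gave 2 with total counts, 287 with no filter, 10 with the block over all groups, 0 in the groups alone and 34 by DESeq2. The difference of TGF-β1 responses (1) gave 0 with total counts, the block over all groups, 15 libraries and the groups alone, and 8 with no filter. That of BMP4 responses (0) gave 48 with no filter, 7 with the block within label and 15 by DESeq2.

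With 1 library left out at a time, members past a 10-fold fall numbered 3 to 6 under the knockout label and 5 to 6 under the floxed label, and members called 0 in every comparison. The count of 3 came without knockout-labelled TGF-β1 library 1 and that of 6 without TGF-β1 library 2. Neighbours called under the knockout label numbered 2 to 4 lower and 1 higher, and under the floxed label 4 to 5 lower and 1 to 2 higher. Genes called over all genes numbered 4360 to 4616 and 4232 to 4537 with TGF-β1 under the knockout and floxed labels, 3 to 120 and 0 to 1 with BMP4, 31 to 607 untreated, 0 to 16 with TGF-β1 and 1 to 5 with BMP4 between the labels, 0 to 1 for the difference of TGF-β1 responses and 0 for that of BMP4 responses. The BMP4 count under the knockout label moved by over 1.5 times without any 1 of its BMP4 libraries or untreated library 1 (3) or 3. Between the labels, the untreated count (lowest without knockout-labelled untreated library 1, highest without library 2) and the TGF-β1 count did so without any 1 of their 6 libraries, and the BMP4 count without knockout-labelled library 1 or 2 or floxed-labelled library 2 or 3. Clustered protocadherins called lower numbered 0 to 1 in each label, 1 without knockout-labelled TGF-β1 library 3 or floxed-labelled TGF-β1 library 1 or 2. TOX and HMG-box genes called lower numbered 0 without knockout-labelled TGF-β1 library 1 or 3 or untreated library 3, and 2 without floxed-labelled TGF-β1 library 3 or untreated library 1. GPRC5 and retinoid pathway genes under the floxed label numbered 2 higher without untreated library 2 and 2 lower without untreated library 3. Uncalled log2 values that changed sign ranged as follows. With BMP4 under the knockout label: Gprc5c -0.35 to 0.06, Rnd3 -0.02 to 0.14, Tox2 -0.1 to 0.93, B3gnt5 -0.12 to 0.22, Pcdhac2 -0.41 to 0.21. With BMP4 under the floxed label: Gprc5c -0.15 to 0.05, Kbtbd11 -0.19 to 0.35, Tox2 -0.09 to 0.34. Between the labels untreated: Rnd3 -0.1 to 0.01, Kbtbd11 -0.42 to 0.08, Tox2 -0.62 to 0.12, Pcdhac2 -0.33 to 0.37. Between the labels with TGF-β1: Gprc5c -0.03 to 0.4, Rnd3 -0.33 to 0.05, Tox2 -0.25 to 1.03. Between the labels with BMP4: Gprc5c -0.02 to 0.34, Rnd3 -0.13 to 0.03, Tox2 -0.38 to 0.44, B3gnt5 -0.17 to 0.17. For the difference of TGF-β1 responses: Gprc5c -0.31 to 0.15, Rnd3 -0.26 to 0.11, Tox2 -0.11 to 1.18, B3gnt5 -0.85 to 0.01. For that of BMP4 responses: Gprc5c -0.3 to 0.11, Tox2 -0.24 to 0.79. Among neighbours with TGF-β1: Gm13493 -0.14 to 0.26 under the knockout label and -0.24 to 0.4 under the floxed label, Pcdhb22 -0.23 to 0.11 under the knockout label.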
